A study of Mus musculus with 12 samples.

Results

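The genes described here are 10 genes that glucocorticoid hormone is known to induce: Fkbp5, Tsc22d3, Zbtb16, Klf9, Klf15, Sgk1, Dusp1, Mt1, Mt2 and Cebpd. They were picked by name, with earlier results of these data known, and all 10 were found among the 17920 genes listed for each library. All 10 passed the filter on low values, so each was tested. The libraries come from lung tissue of male BALB/c mice, aged 6 to 8 weeks and weighing 20 g, with 1 library of polyadenylated RNA per mouse. The study held 24 mice in 4 groups of 6, and 3 mice of each group were sequenced after 14 days. The control group, labelled NC, is listed with neither agent. The LPS group received 50 µL of lipopolysaccharide, a bacterial cell wall product that inflames the lung, at 1 µg/µL. The BLF group received bovine lactoferrin, a protein of milk that binds iron, with a daily dose of 200 mg/kg. The LPSBLF group received both agents. The labels name no vehicle, no route or day of LPS, and no time of day at which lungs were taken.

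Glucocorticoids (corticosterone in mice) enter the cell and bind the glucocorticoid receptor Nr3c1, which is held ready for the hormone by a chaperone complex of Hsp90, Hsp70 and co-chaperones. The bound receptor moves to the nucleus, where it binds DNA at paired inverted sites and raises the transcription of target genes. In the lung this hormone damps inflammation and matures the alveolar epithelium, and its blood level follows both stress and the time of day. Several of the genes described here also answer to other signals, such as metals, cytokines, growth factors and handling.

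Some libraries stood apart, whatever their group. LPS replicate 1 had a median Spearman correlation of 0.934 with the other 11 libraries, where the others had medians of 0.962 to 0.985. That library had 3067 genes listed at 0, where the others had 1499 to 1963. Its neutrophil markers summed to 1580 FPKM (range of the other 11: 192 to 626), with Retnlg (594) and S100a9 (607) the largest. Camp, Ngp, Mmp8, Mmp9 and Mpo were also highest of the 12 libraries there. S100a8, Csf3r, Cxcr2 and Ly6g lay within the range of the other 11, and Elane, one of the 12 markers, was listed at 0. The NK and cytotoxic cell markers of LPS replicate 1 summed to 24.8 FPKM against 583 and 536 in the other LPS libraries (Gzmb and Klre1, of 10 markers, were listed at 0). Markers of brown and white fat reached a sum of 21760 FPKM in LPSBLF replicate 2, of 11187 in control replicate 1 and of 5509 in BLF replicate 1, and lay between 24.4 and 182 elsewhere. Cardiac markers were highest in BLF replicate 1 (5369) and LPSBLF replicate 2 (4449). LPSBLF replicate 3 carried skeletal muscle markers at 4180 FPKM and squamous epithelium markers at 882, where no other library passed 185 and 14.7. All 10 defining lung markers were present in every library. Their mean log2 level relative to control was lowest in LPS replicate 1, at -0.924, where the other libraries held -0.656 to 0.296. One of these markers, the club cell secretoglobin Scgb1a1, made up 23.8% of all counts in control replicate 2. Its share in the other libraries was 1.68 to 7.43%, and the FPKM of the other genes is scaled by a total that includes it. Total counts were 16714327 to 17820645 per library. In tissue of this kind, fewer cells of a type and less RNA per cell cannot be told apart.

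Sequence before the start sites was read from the RefSeq promoter table (GRCm38.p6), which held 8 of the 10 genes in 15 windows of 300 bases. Zbtb16 and Cebpd were not matched. The letters searched, on both strands, were the receptor hexamer AGAACA, the receptor palindrome, which is that hexamer followed after 3 bases by its reverse complement, and the core of the metal response element, written as TGCACNC or TGCGCNC. The palindrome was found in 3 of 32851 windows of all genes (0.00913%), and 1 of these 3 was a window of Sgk1. The hexamer, which each palindrome holds on both of its arms, was found in 19.0% of all windows and the metal core in 25.7%. These 4 stretches are shown because they hold these letters: the Sgk1 window with the palindrome, the Tsc22d3 window with a hexamer, and the metal cores of the metallothioneins. Capitals mark the letters named for each stretch, and a further hexamer of the Sgk1 stretch (TGTTCT, base -242 to base -237) is left in lower case. Each stretch reads 5′ to 3′ on the strand of its gene.
Sgk1, chr10:21993640-21993889, plus strand, palindrome in capitals: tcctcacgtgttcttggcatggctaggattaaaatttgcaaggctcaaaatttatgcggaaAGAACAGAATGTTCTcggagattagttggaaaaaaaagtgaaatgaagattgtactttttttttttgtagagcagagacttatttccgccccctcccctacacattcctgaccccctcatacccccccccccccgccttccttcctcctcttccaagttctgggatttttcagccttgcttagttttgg
Tsc22d3, chrX:140600660-140600772, minus strand, hexamer in capitals: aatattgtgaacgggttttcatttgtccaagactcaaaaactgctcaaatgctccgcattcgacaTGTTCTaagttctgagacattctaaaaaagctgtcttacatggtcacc
Mt1, chr8:94179052-94179081, plus strand, metal core in capitals: gggcggtcccgctgTGCACACtggcgctcc
Mt2, chr8:94172368-94172617, plus strand, metal cores in capitals: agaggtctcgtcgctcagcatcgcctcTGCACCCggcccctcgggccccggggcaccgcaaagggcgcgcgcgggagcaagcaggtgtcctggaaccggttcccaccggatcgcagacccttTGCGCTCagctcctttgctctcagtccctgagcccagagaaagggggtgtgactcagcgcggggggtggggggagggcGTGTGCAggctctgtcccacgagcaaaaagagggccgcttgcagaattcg
The Sgk1 palindrome lies at chr10:21993701-21993715, from base -189 to base -175 before its start site, inside the span of the gene because Sgk1 has several start sites (6 windows). The whole Mt2 window held 4 metal cores and the whole Mt1 window 3, and 0.517% of all windows held 4 or more. The same letters also lay in member windows not shown. Sgk1 windows 1 and 4, numbered along the chromosome, held a hexamer. A metal core was found in the Klf15 window, the Dusp1 window and Sgk1 window 6. The windows of Fkbp5, Klf9, Klf15, Dusp1, Mt1 and Mt2 held no hexamer. A match of letters is a description of the sequence and does not show that a factor binds there.

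Levels of the 10 genes are given in FPKM, the deposited unit that scales fragments to gene length and library size. Across the 12 libraries the mean level ran from 1.57 FPKM for Zbtb16 and 5.26 for Fkbp5 to 639 for Mt2 and 1885 for Mt1. The lowest count of any of the 10 genes in any library was 70 (Zbtb16), and Fkbp5 had 91 to 2160 counts. None of the 10 was listed at 0 in any library.

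**Figure D1:**
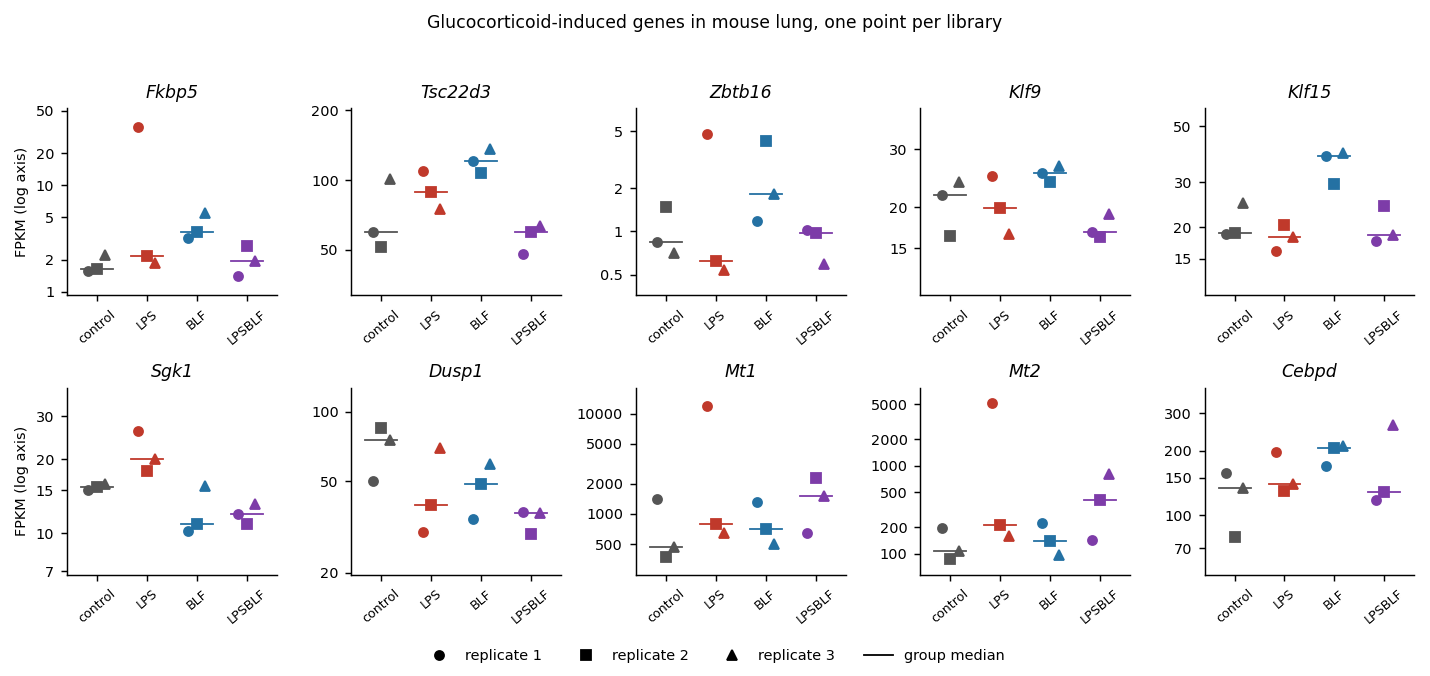
FPKM (log axis) of the 10 genes in each of the 12 libraries, with 1 panel per gene, 1 point per library (symbols give the replicate number) and a line at the median of each group of 3. In the BLF group Klf15 lies at 29.7 to 39.3 FPKM, above every other library, and LPS replicate 1 stands far above all other libraries for Fkbp5, Mt1 and Mt2.

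Fkbp5 (chr17:28398753-28486149, minus strand) encodes an immunophilin that binds the Hsp90 complex and lowers the receptor's affinity for the hormone, and it is widely used as a sensor of glucocorticoid action. It was at 1.57, 1.64 and 2.22 FPKM in control, 35.3, 2.16 and 1.85 in LPS, 3.19, 3.66 and 5.51 in BLF, and 1.40, 2.68 and 1.93 in LPSBLF. LPS replicate 1 was 16.3 times the median of the other 11 libraries, and the 3 BLF libraries ranked next, all above the other 8 libraries.

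Tsc22d3 (chrX:140539528-140600522, minus strand) encodes GILZ, a leucine zipper protein that mediates anti-inflammatory effects of glucocorticoid. Its level was 59.5, 51.6 and 101 FPKM in control, 109.9, 88.9 and 75.0 in LPS, 121, 107 and 136 in BLF, and 48.0, 59.8 and 63.3 in LPSBLF. The LPSBLF libraries lay below every LPS and every BLF library, and the BLF libraries lay above every control library. Dusp1 (chr17:26505591-26508472, minus strand), a phosphatase that switches off p38 and JNK kinases, was at 49.9, 84.4 and 75.6 FPKM in control, 29.9, 39.5 and 69.4 in LPS, 34.4, 48.3 and 59.4 in BLF, and 36.6, 29.5 and 36.2 in LPSBLF. For Dusp1 the highest group mean was that of control, where for Tsc22d3 it was that of BLF, and in both genes the LPSBLF group had the lowest mean. The 3 LPSBLF libraries of Dusp1 lay below every control library.

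The transcription factors of the set differed in their pattern. Klf15 (chr6:90461043-90491803, plus strand), a zinc finger factor of amino acid and lipid metabolism, was at 18.8, 18.9 and 24.9 FPKM in control, 16.2, 20.3 and 18.3 in LPS, 38.0, 29.7 and 39.3 in BLF, and 17.6, 24.1 and 18.6 in LPSBLF. Only the BLF libraries stood apart for Klf15, and the other 9 libraries overlapped across groups. Klf9 (chr19:23141226-23168129, plus strand), a related factor induced by both glucocorticoid and thyroid hormone, was at 21.8, 16.3 and 23.8 in control, 24.9, 19.9 and 16.5 in LPS, 25.5, 23.9 and 26.7 in BLF, and 16.7, 16.2 and 19.0 in LPSBLF. The lowest BLF library was only just above the highest control library for Klf9, and it lay above every LPSBLF library by a wider gap.

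Cebpd (chr16:15887286-15889545), a basic leucine zipper factor that is also induced by inflammatory cytokines, was at 157, 78.8 and 133 FPKM in control, 197, 129 and 139.9 in LPS, 170.02, 206 and 211 in BLF, and 118, 128 and 264 in LPSBLF. Its BLF libraries lay above every control library, and its highest value was in LPSBLF replicate 3, the library with skeletal muscle and squamous markers. Zbtb16 (chr9:48651797-48836225) encodes PLZF, a zinc finger repressor that glucocorticoid induces strongly in many tissues. It was at 0.84, 1.48 and 0.71 FPKM in control, 4.81, 0.62 and 0.54 in LPS, 1.18, 4.24 and 1.82 in BLF, and 1.02, 0.97 and 0.59 in LPSBLF. The 2 highest libraries were LPS replicate 1 and BLF replicate 2, and BLF overlapped control.

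Sgk1 (chr10:21882184-21999903, plus strand), a kinase that regulates sodium channels and also answers to growth factors and cell stress, was at 15.1, 15.4 and 15.8 FPKM in control, 26.1, 17.9 and 20.0 in LPS, 10.2, 10.9 and 15.6 in BLF, and 12.0, 10.9 and 13.1 in LPSBLF. It was the single member with every LPS library above every control library in FPKM, where 4.0% of all genes had such ranges. On the TMM-scaled CPM scale, which allows for the share of RNA taken by Scgb1a1, the LPS and control libraries of Sgk1 overlapped.

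The metallothioneins Mt1 (chr8:94178883-94180327, plus strand) and Mt2 (chr8:94172618-94173567, plus strand) are neighbours on the chromosome and encode small proteins that bind zinc and copper. Metals, glucocorticoid and the cytokine IL6 all induce them. Mt1 was at 1412, 373 and 472 FPKM in control, 12016, 786 and 649 in LPS, 1314, 699 and 502.5 in BLF, and 638, 2264 and 1500.1 in LPSBLF. Mt2 was at 196, 87.2 and 108 in control, 5094, 210.3 and 160.2 in LPS, 222, 140.05 and 97.3 in BLF, and 145, 403 and 809 in LPSBLF. LPS replicate 1 reached 17.2 times the median of the other libraries for Mt1 and 31.8 times for Mt2. The next highest libraries were LPSBLF replicates 2 and 3. The level of Mt1 was 1.85 to 7.20 times that of Mt2, lowest in LPSBLF replicate 3 and in LPS replicate 1 (2.36), and highest in control replicate 1. The 2 transcripts are similar in sequence, so how the counting split reads between them is uncertain.

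**Figure D2:**
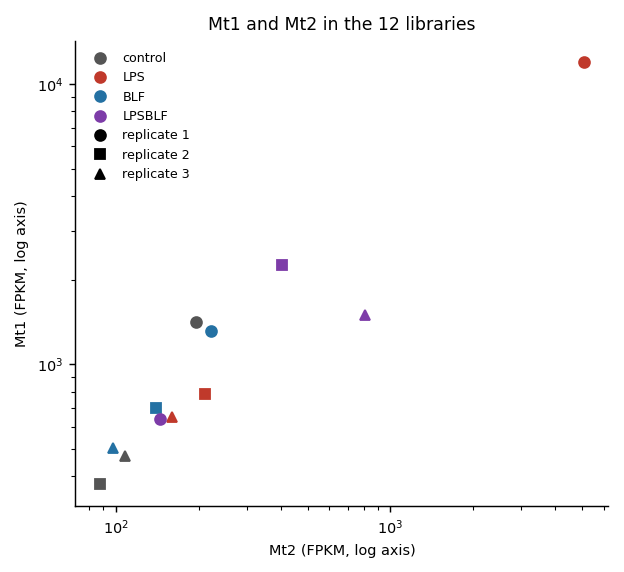
FPKM of Mt1 against Mt2 (both log axes) in the 12 libraries, coloured by group with a symbol per replicate number. LPS replicate 1 lies alone at 12016 and 5094 FPKM, and LPSBLF replicate 3 has the lowest ratio of Mt1 to Mt2, at 1.85.

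The effect of lactoferrin alone was read from BLF against control. Fkbp5, Tsc22d3, Klf15, Klf9 and Cebpd were higher in all 3 BLF libraries than in all 3 control libraries, in FPKM and in TMM-scaled CPM alike. These 5 of 10 members compare with 2.21% of all genes whose BLF libraries lay above every control library in FPKM (4.34% in TMM-scaled CPM). This count was added after the values were seen, and it is a description and no test of the set. Klf15 was at 35.7 ± 5.22 FPKM in BLF and 20.9 ± 3.47 in control (mean ± SD, 3 libraries each), and Tsc22d3 at 121 ± 14.4 and 70.8 ± 26.7. By edgeR's quasi-likelihood test the log2 fold change was 0.79 ± 0.18 (SE) for Klf15 (unadjusted p = 0.00129) and 0.77 ± 0.27 for Tsc22d3 (unadjusted p = 0.0172). It was 1.21 ± 0.97 for Fkbp5, 1.25 ± 0.85 for Zbtb16, 0.71 ± 0.36 for Cebpd and 0.33 ± 0.22 for Klf9, and negative for Dusp1 (-0.56) and Sgk1 (-0.34). After Benjamini-Hochberg adjustment over all 13735 genes edgeR called 0 of the 10 members and 0.0% of all genes, and the adjusted p was 1.00 for each member. At an unadjusted p under 0.05, 2 of 10 members were higher (Klf15 and Tsc22d3) where 0.684% of all genes were, and 0 were lower, where 0.663% of all genes were. DESeq2 also called 0 members, and limma on log2(FPKM + 1) called 0. With all 12 libraries DESeq2 gave no p for Fkbp5 in any comparison, so its counts of members rest on the other 9 genes. The median log2 fold change was 0.52 over the members and -0.03 over all genes tested.

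The spread that these tests use is shared by all groups, and for several members it was smaller without LPS replicate 1. Without that library the fold change of Fkbp5 for BLF against control was still 1.21, and its SE was 0.30 in place of 0.97 (unadjusted p = 0.00227, adjusted p = 0.959, higher in 3 of 3 BLF libraries). Then 6 members had an unadjusted p under 0.05 and were higher (Cebpd, Fkbp5, Klf15, Klf9, Tsc22d3 and Zbtb16), where 1.97% of all genes were, and 0 were called. With control replicate 1, BLF replicate 1, LPS replicate 1 and LPSBLF replicates 2 and 3 all left out, 6 of 10 members were again higher at an unadjusted p under 0.05, among them Mt1 and not Klf9, where 5.0% of all genes were. With only the 3 libraries rich in fat and heart markers left out, 1 member (Klf15) was, where 0.553% of all genes were. Klf15 was at 29.7 and 39.3 FPKM in the BLF libraries with fat marker sums of 40.9 and 38.7 FPKM, and 38.0 in the BLF library with 5509. In the fat-rich LPSBLF replicate 2 it was at 24.1, and at 17.6 and 18.6 in LPSBLF replicates 1 and 3. In the fat-rich control replicate 1 it was at 18.8, and at 18.9 and 24.9 in control replicates 2 and 3. The part of fat tissue in the Klf15 level was not tested.

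**Figure D3:**
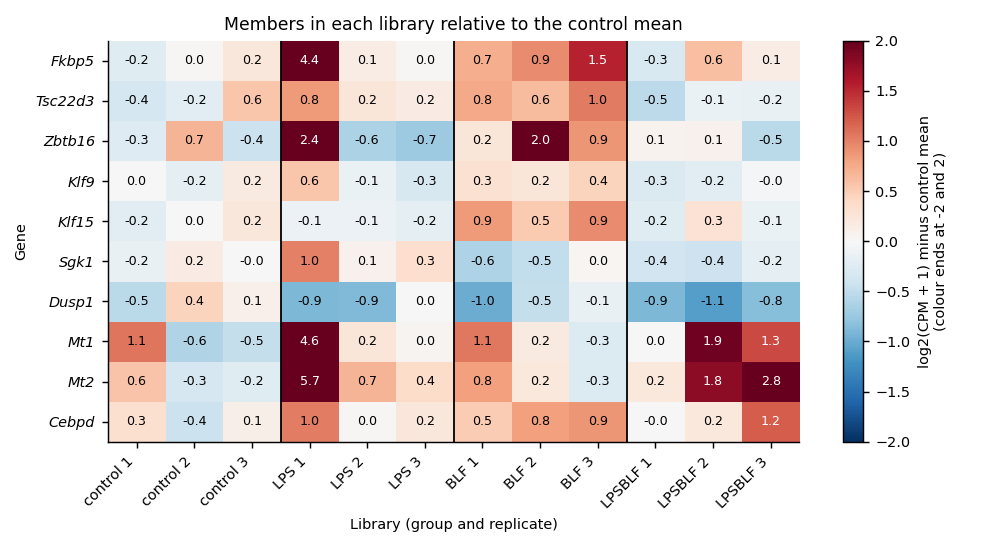
Difference of log2(CPM + 1) from the control mean for the 10 genes (rows) in each library (columns, grouped by treatment), on TMM-scaled CPM, with colours ending at -2 and 2 and the value printed in each cell. The BLF columns are above 0 for Fkbp5, Tsc22d3, Zbtb16, Klf9, Klf15 and Cebpd, LPS replicate 1 reaches 5.7 for Mt2, and Dusp1 is below 0 in every LPSBLF library.

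In mice that received LPS with lactoferrin, the log2 fold change against control ran from -0.32 (Tsc22d3) to 0.21 (Fkbp5) among the members that were high under lactoferrin alone, apart from Cebpd at 0.54 ± 0.36 (SE). The comparison of LPSBLF with BLF was added after the members' values had been seen. Fkbp5, Tsc22d3, Zbtb16, Klf9 and Klf15 were lower in all 3 LPSBLF libraries than in all 3 BLF libraries (5 of 10 members), where 6.87% of all genes were. The log2 fold change was -0.82 ± 0.18 (SE) for Klf15 (edgeR, unadjusted p = 0.00103), -1.08 ± 0.27 for Tsc22d3 (unadjusted p = 0.00229), -0.52 ± 0.22 for Klf9 (unadjusted p = 0.0354), -1.46 ± 0.85 for Zbtb16 and -1.01 ± 0.96 for Fkbp5. Those 3 of 10 members had an unadjusted p under 0.05 and were lower, where 1.01% of all genes were. edgeR called 0 members and 0.0% of all genes (adjusted p = 1.00 for each), and DESeq2 and limma called 0 members. Without LPS replicate 1, 5 members were lower at an unadjusted p under 0.05 where 2.53% of all genes were, Mt2 was higher, where 3.66% of all genes were, and edgeR still called 0. DESeq2 without that library called Tsc22d3 (adjusted p = 0.0164, lower in 3 of 3 libraries) and Klf15 (adjusted p = 0.0321, lower in 3 of 3), and 0.176% of the genes it gave an adjusted p. With the 5 libraries named above left out, which leaves 1 LPSBLF library whose spread is assumed to equal that of the others, 6 of 10 members were lower where 0.888% of all genes were.

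Whether lactoferrin acted differently with and without LPS was tested by the interaction, the log2 effect of lactoferrin in mice given LPS minus that in mice not given it. It was -1.48 ± 0.39 (SE) for Tsc22d3 (edgeR, unadjusted p = 0.00278), -4.10 ± 1.39 for Fkbp5 (unadjusted p = 0.0135) and -0.66 ± 0.26 for Klf15 (unadjusted p = 0.0271). These 3 of 10 members had an unadjusted p under 0.05 with a negative value, where 1.48% of all genes did, and 0 had a positive one, where 1.33% of all genes did. edgeR called 0 members and 0.0% of all genes (adjusted p = 1.00 for each), and DESeq2 and limma called 0 members. The median was -1.07 over the members and 0.03 over all genes, and without LPS replicate 1 it was -0.28 and 0.03. The size for Fkbp5 rested on LPS replicate 1, and it was -1.09 ± 0.44 without that library. Tsc22d3 was at -1.24 ± 0.35 and Klf15 at -0.66 ± 0.27 without it, and the same 3 members had a negative value at an unadjusted p under 0.05, where 1.76% of all genes did. The interaction contains the BLF against control difference, so these values share libraries with those given above.

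**Figure D4:**
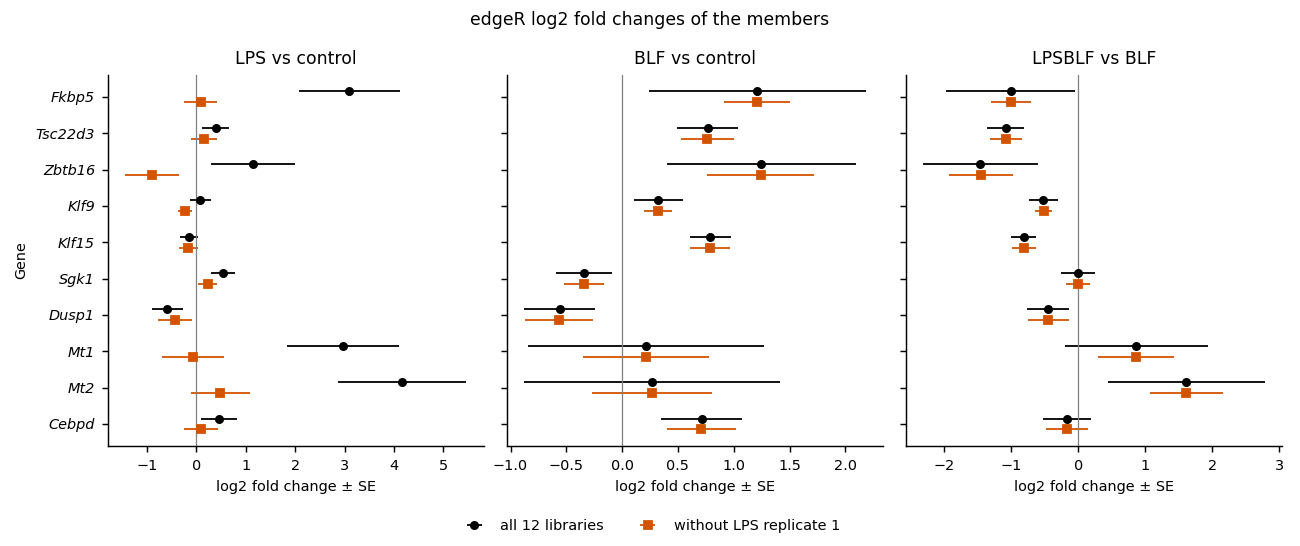
Log2 fold change with its SE (edgeR) of the 10 genes for LPS against control, BLF against control and LPSBLF against BLF, with all 12 libraries (circles) and without LPS replicate 1 (squares). Leaving out that library takes Fkbp5 from 3.10 to 0.09 for LPS against control, and leaves its value for BLF against control at 1.21 with a shorter bar.

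LPS against control was dominated by 1 library. The fitted log2 fold change was 4.17 ± 1.30 (SE) for Mt2 (edgeR, unadjusted p = 0.00838), 3.10 ± 1.02 for Fkbp5 (unadjusted p = 0.0115) and 2.97 ± 1.14 for Mt1 (unadjusted p = 0.0241). These 3 of 10 members were higher at an unadjusted p under 0.05 where 5.43% of all genes were, and 0 members were lower, where 1.72% of all genes were. edgeR called 0 members and 0.0% of all genes, and the lowest adjusted p among the members was 0.519 (Mt2, higher in 2 of 3 LPS libraries than in every control library). DESeq2 called Mt2 (adjusted p = 0.0452), as it did 1.02% of the genes it gave an adjusted p, and limma called 0 members. Without LPS replicate 1 the values were 0.49 ± 0.60 for Mt2, 0.09 ± 0.33 for Fkbp5 and -0.06 ± 0.63 for Mt1. No member then had an unadjusted p under 0.05, where 3.83% of all genes were higher and 1.17% lower, and edgeR called 0.182% of all genes. Zbtb16 went from 1.15 ± 0.85 to -0.89 ± 0.55 and Klf9 from 0.08 ± 0.22 to -0.23 ± 0.14 when that library was left out. Klf9 was also at -0.02 by limma with all 12 libraries. The median over the members was 0.50 with all libraries and 0.01 without LPS replicate 1, beside -0.04 over all genes with all libraries. In LPS replicate 1 the neutrophil marker sum was 1580 FPKM and the NK marker sum 24.8, and the part of these in the member levels was not tested.

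Adding lactoferrin to LPS, LPSBLF against LPS, gave lower values for Sgk1 and Tsc22d3 in all 3 libraries than in all 3 LPS libraries, where 4.91% of all genes were. Sgk1 was at 12.0 ± 1.12 FPKM in LPSBLF and 21.4 ± 4.27 in LPS (mean ± SD, 3 libraries each). Its log2 fold change was -0.89 ± 0.25 (SE; edgeR, unadjusted p = 0.00487), beside -0.72 ± 0.27 for Tsc22d3 (unadjusted p = 0.0238) and -2.89 ± 1.01 for Fkbp5 (unadjusted p = 0.0157). These 3 of 10 members compare with 3.52% of all genes that were lower at an unadjusted p under 0.05. edgeR called 0 members and 0.0% of all genes (adjusted p = 0.684 for Sgk1, lower in 3 of 3 libraries), and DESeq2 and limma called 0 members. Without LPS replicate 1, Sgk1 was at -0.57 ± 0.20 and Tsc22d3 at -0.47 ± 0.26, and Fkbp5 was at 0.12 ± 0.33, so the lower fitted level of Fkbp5 rested on that library. Sgk1 was then the single member lower at an unadjusted p under 0.05, where 4.16% of all genes were, and edgeR called 0 members and 0.0146% of all genes. Mt1 and Mt2 also turned, from -1.89 and -2.28 with all libraries to 1.14 and 1.40 without it.

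In LPSBLF against control, Dusp1 had the lowest unadjusted p of the members in edgeR with all 12 libraries, while the fitted differences of Mt2 and Mt1 were larger with wider errors. The Dusp1 log2 fold change was -1.01 ± 0.32 (SE; edgeR, unadjusted p = 0.00924, adjusted p = 0.832), and Dusp1 and Sgk1 lay below every control library in all 3 LPSBLF libraries, where 7.8% of all genes did. For Dusp1 the same value was -1.01 ± 0.31 without LPS replicate 1. It was the single member with an unadjusted p under 0.05, lower where 2.15% of all genes were. edgeR called 0 members and 0.0% of all genes, and DESeq2 and limma called 0 members. Mt2 was at 1.88 ± 1.18 and Mt1 at 1.08 ± 1.07. Their 2 high LPSBLF libraries are those with fat markers (21760 FPKM, replicate 2) and with skeletal muscle and squamous markers (4180 and 882 FPKM, replicate 3). Mt1 and Mt2 were also highest of their group in the other fat-rich libraries, control replicate 1 (1412 and 196 FPKM) and BLF replicate 1 (1314 and 222). The part of other tissue in these levels was not tested. Mt2 was at 0.53 and Mt1 at 0.56 when the 5 libraries that stood apart were left out, which leaves only replicate 1 in the LPSBLF group. Without LPS replicate 1 alone, DESeq2 called Mt2 (adjusted p = 0.0308) and not Dusp1 (adjusted p = 0.103), and it called 0.809% of the genes it gave an adjusted p. Leaving out that library gave Mt2 an unadjusted p of 0.00673 in edgeR, higher where 6.31% of all genes were.

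The gene of the receptor, Nr3c1, was at 14.8, 10 and 14.2 FPKM in control, 8.01, 13.4 and 11.7 in LPS, 12.8, 12.5 and 11.6 in BLF, and 11.9, 10.7 and 10.7 in LPSBLF, with all groups overlapping and its lowest level in LPS replicate 1. Hsd11b1, the enzyme that regenerates active hormone inside cells, was also lowest in LPS replicate 1 (31.6 FPKM, where the other 11 libraries held 47.5 to 115). Of 20 listed genes of the receptor complex and steroid handling, 19 were tested, and edgeR called 0 of them in any comparison. In BLF against control 4 of the 19 were higher at an unadjusted p under 0.05, where 0.684% of all genes were, and 0 were lower. With LPS replicate 1 left out, 5 were higher, where 1.97% of all genes were, and 1 was lower, where 286 of 13735 genes were. The 4 genes encode chaperones of the receptor complex, and another chaperone of that complex, Ptges3, was at 37.2, 42.7 and 32.7 FPKM in control and 37.8, 32.6 and 42.8 in BLF, with overlapping groups. Stip1, the co-chaperone that links Hsp70 to Hsp90, was at 98.0, 70.8 and 84.0 FPKM in control and 180, 147 and 160.2 in BLF (log2 fold change 0.97 ± 0.27 SE, unadjusted p = 0.00376). The Hsp90 genes Hsp90ab1 (0.84 ± 0.26) and Hsp90aa1 (0.69 ± 0.27) and the immunophilin Fkbp4 (0.53 ± 0.20), which helps carry the receptor to the nucleus, were also higher in every BLF library than in every control library. In LPSBLF against BLF, Stip1 was at -0.74 (unadjusted p = 0.0176) and the Hsp70 gene Hspa8 at -0.68 (unadjusted p = 0.0263), so 2 of 19 were lower where 1.01% of all genes were.

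**Figure D5:**
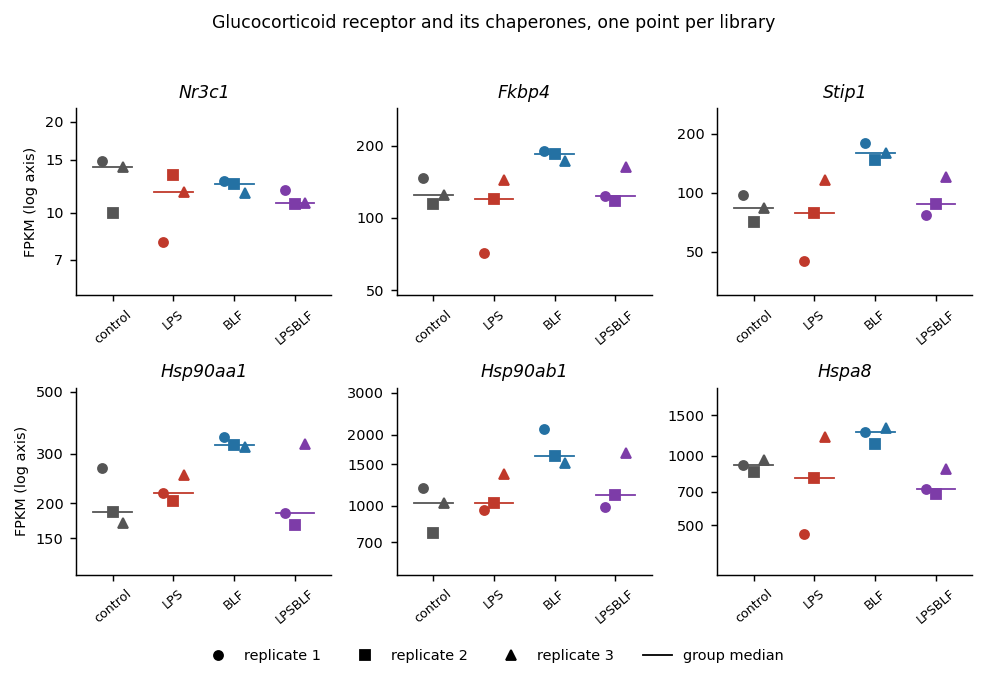
FPKM (log axis) of the receptor Nr3c1 and 5 genes of its chaperone complex in the 12 libraries, with 1 point per library and a line at the group median. The BLF libraries of Stip1 lie at 147 to 180 FPKM, above every control library, while Nr3c1 overlaps between all groups.

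Among 30 other genes known to be induced by glucocorticoid, 29 were tested and edgeR called 0 in any comparison. In BLF against control 2 were higher at an unadjusted p under 0.05, where 0.684% of all genes were, and 0 were lower, and the median log2 fold change was 0.20. When LPS replicate 1 was left out, 4 were higher, where 1.97% of all genes were. Per1, a clock gene with receptor binding sites, was at 18.0, 12.3 and 25.9 FPKM in control and 32.7, 28.6 and 34.7 in BLF (0.78 ± 0.32 SE, unadjusted p = 0.0329), and at 16.2, 17.2 and 18.95 in LPSBLF. Its BLF libraries lay above every control and every LPSBLF library. In the interaction 6 of the 29 were negative at an unadjusted p under 0.05, where 1.48% of all genes were, and 0 were positive. Only 3 were negative without LPS replicate 1, where 1.76% of all genes were. Leaving out that library took Per1 from -1.31 to -0.81 and Cdkn1a, at 388 FPKM there, from -2.66 to -0.77. In LPS replicate 1 the decoy receptor of interleukin 1, Il1r2, was 39.95 times the median of the other 11 libraries, the cell cycle inhibitor Cdkn1a 7.30 times and the fuel switch kinase Pdk4 5.10 times. Pdk4 was higher still in the 3 fat-rich libraries, control replicate 1 (9.62 FPKM), BLF replicate 1 (5.19) and LPSBLF replicate 2 (14.0), against 4.59 in LPS replicate 1.

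The clock list gives a mark of the time of day, which the labels do not state for the lungs taken. All 17 clock genes were tested, and edgeR called 0 in any comparison. In LPSBLF against BLF 5 of 17 were lower at an unadjusted p under 0.05, where 1.01% of all genes were, and 0 were higher. Among the 5 were the period gene Per2 (-1.55) and the output factor Hlf (-1.43). In BLF against control 2 were higher (Per1 and the clock repressor Ciart), where 0.684% of all genes were, and 0 were lower. In LPS against control 3 were lower, where 1.72% of all genes were, and 0 were higher, and without LPS replicate 1, 4 were lower, where 1.17% of all genes were. In LPSBLF against control 2 were lower, where 2.15% of all genes were, and 0 were higher. In LPSBLF against LPS 1 was higher, where 466 of 13735 genes were, and 1 was lower, where 3.52% of all genes were. The interaction was negative for 1, where 1.48% of all genes were. The part of sampling time in the member levels was not tested.

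Some genes that share inducers with the members were also high in LPS replicate 1, and others were low there. In LPS replicate 1 the acute-phase genes Saa3 and Timp1 were 97.6 and 39.2 times the median of the other 11 libraries, and the heme oxygenase gene Hmox1, which answers to oxidative stress, was 7.42 times. Of the other oxidative stress genes of the metal response list, Gclc (2.20 FPKM), Gclm (1.26) and Txnrd1 (3.14) were at their lowest of 12 libraries there. Slc7a11 of the same list was at its highest there, at 1.57 FPKM where the other libraries held 0.06 to 0.21. Of the zinc transporter genes on that list, Slc30a1 (14.9 FPKM, 5.95 to 8.52 elsewhere) and Slc39a14 (3.62) were at their highest in LPS replicate 1. Slc39a8 (34.8) and Slc39a10 (0.24) were at their lowest there. With genes of the metal response list moving both ways, its mean log2 level relative to control was 0.043 in LPS replicate 1. That lay within the -0.128 to 0.179 of the other libraries. The same mean for the acute-phase list was 1.48, above the -0.31 to 0.39 of the others. Il6 itself was at 1.46 FPKM there and at most 0.27 elsewhere. In LPSBLF replicates 2 and 3, where Mt1 and Mt2 were next highest, Hmox1 was at 37.4 and 31.8 FPKM, within the 29.2 to 44.5 of the libraries other than LPS replicate 1. Saa3 was at 236 FPKM in LPSBLF replicate 2 and 54.4 in LPSBLF replicate 3, where libraries other than these and LPS replicate 1 reached at most 103. The complement gene C3 was highest of all 12 libraries in LPSBLF replicate 2 (233 FPKM) and was at 91.5 in LPSBLF replicate 3. Timp1 was second to LPS replicate 1 in LPSBLF replicate 3 (21.4) and was at 9.48 in LPSBLF replicate 2. Lcn2 was at 109 and 129 FPKM in LPSBLF replicates 2 and 3, within the 107 to 265 of control. The mean log2 level of the acute-phase list relative to control was 0.387 in LPSBLF replicate 2 and -0.068 in LPSBLF replicate 3. Of 10 tested metal response genes, edgeR called 0 in any comparison, and in LPS against control 2 were higher at an unadjusted p under 0.05 (Hmox1 and the zinc importer Slc39a14), where 5.43% of all genes were, and 0 lower. These counts were 0 and 0 without LPS replicate 1. Of 14 tested acute-phase genes edgeR also called 0. In LPS against control 6 of them were higher at an unadjusted p under 0.05, where 5.43% of all genes were, and 0 were lower. Without LPS replicate 1 the count of acute-phase genes that were higher was 2, where 3.83% of all genes were.

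Immediate-early genes, which share inducers with Dusp1 and Sgk1, were tested for 21 of 23, with 0 called by edgeR in any comparison. Nr4a1, an orphan receptor gene, was at 30.6, 20.9 and 24.5 FPKM in control and 11.3, 11.2 and 13.7 in BLF (log2 fold change -1.04, edgeR unadjusted p = 0.000203), so it was lower in BLF where Dusp1 was also lower in fitted value (-0.56). In BLF against control 2 of 21 were lower, where 0.663% of all genes were, and 0 were higher. In LPSBLF against control 2 of 21 were lower, where 2.15% of all genes were, and 1 was higher, where 363 of 13735 genes were. The 17 tested genes of the KLF and CEBP families, 3 of which are members, had 1 higher and 0 lower at an unadjusted p under 0.05 in BLF against control. That 1 was Klf15, and 0.684% of all genes were higher. Without LPS replicate 1, 3 were higher (the members Klf15, Klf9 and Cebpd), where 1.97% of all genes were. Then 1 was lower, where 286 of 13735 genes were. Of the 26 tested genes of the DUSP, SGK, FKBP and TSC22 families, 4 of which are members, 3 were higher and 1 was lower in that comparison. The shares of all genes were 0.684% and 0.663%, and the member Tsc22d3 was among the 3. Without LPS replicate 1 the counts were 5 and 1, where 1.97% and 286 of 13735 genes were. The members Tsc22d3 and Fkbp5 were among those 5.

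The genes whose profile over the 12 libraries was nearest to the mean profile of the 10 members, by the root mean square difference of log2(CPM + 1) after centring each gene on its control mean, were Tmc6 (0.153), C1qtnf6, Foxo3, Rnf169, Haus3 and Scamp5 (0.199). Their likeness followed LPS replicate 1, where they stood 1.43 to 2.07 above their control mean. Over the 11 libraries without it, and among 6794 genes that varied at least as much as the mean profile, the nearest were Ube2f (0.145), Fkbp4 (0.151), Jade2, Trib2, Zbtb45 and Tmem213 (0.168). None of the 6 genes was in both sets. The mean profile mixed unlike members. In LPSBLF replicates 2 and 3 it stood at 0.304 and 0.352, with Mt1 and Mt2 at a mean of 1.865 and 2.038. The members other than Mt1 and Mt2 had a mean of -0.086 and -0.069 there. Likeness to the mean profile is therefore not likeness to each member.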

How the data were processed

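Polyadenylated RNA of lung tissue from 12 mice was sequenced, with 1 library per mouse. Per the file headers, the authors deposited a count and an FPKM value for each gene. The submitters' processing notes name HISAT2 2.1.0, RSEM 1.2.8 and mm10, with no role or order, and strandedness, annotation and filters are not given in the sources used here. The deposited counts are estimated counts (also called expected counts), as judged from their values: 4.12 to 5.91% of genes per library were not whole, and all were rounded. The deposited FPKM values were used as they stand, for levels and for the filter (at least 0.5 FPKM in at least 3 of 12 libraries, 13735 genes).

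All 12 libraries entered 1 edgeR 4.0.16 quasi-likelihood fit (R 4.3.3) of 4 group means with TMM scaling and 8 residual degrees of freedom. Tests were two-sided, and calls were made where the p adjusted by Benjamini-Hochberg over all genes tested was under 0.05. SEs of log2 fold changes come from the F statistic, and p-values measure the spread between mice. Per library, 3 counts, the floor used for counting error alone, equal 0.168 to 0.179 CPM. The code was tested on simulated counts. The alternatives were DESeq2 1.42.0, limma 3.58.1 on log2(FPKM + 1) and log2(FPKM + 0.1), upper-quartile scaling, no filter on low values, a filter on a mean of 5 FPKM, a robust fit, only the groups compared, a replicate block, and libraries left out.

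The 10 members, the gene lists and the tests were chosen with earlier results of these data known. All members are named. From other lists at most 4 genes per comparison (largest fold) or 3 per library (largest ratio to the median of the others), with a mean of at least 1 FPKM, could be named, beside the receptor and Hsd11b1. The 6 genes nearest in profile to the members were named as well. Il6, C3, Lcn2, Gclc, Gclm, Txnrd1, Slc7a11, Slc39a8 and Slc39a10 by library, and Ptges3, were chosen after their values were seen. So were the neutrophil markers named singly and the markers named because they were listed at 0. The comparison of LPSBLF with BLF, the omission of 5 libraries together, and the counts at an unadjusted p or without overlap were added after the values were seen. The treatment label of the LPSBLF samples reads LBS+BLF, and their titles were followed. Coordinates and sequences are from RefSeq GRCm38.p6, the build of mm10. Figures used matplotlib 3.10.9.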

Additional observations from a re-analysis of the deposited data

How the results depend on the processing

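The calls depended on the tool and on LPS replicate 1, and the cause was not tested. With all 12 libraries edgeR called 0 genes in each comparison, and DESeq2 called 138 for LPS against control (1 member, Mt2, with no p for Fkbp5), 7 for LPSBLF against LPS, 1 for BLF against control, 12 for LPSBLF against control, 1 in the interaction and 2 for LPSBLF against BLF. DESeq2 without LPS replicate 1 called 142, 19, 4, 108 (1 member), 16 and 23 (2 members) in the same order. limma on log2(FPKM + 1) called 2 genes for LPS against control. With the 5 libraries that stood apart left out, edgeR called 12 for LPS against control, 2 for BLF against control and 2 for LPSBLF against control, and no member. Leaving out each library in turn, edgeR called 0 to 25 genes for LPS against control and 0 to 2 for LPSBLF against LPS, the higher count each time without LPS replicate 1.

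The median log2 fold change of the members went from 0.50 to 0.014 in DESeq2 without LPS replicate 1 and to -0.0095 without the 5 libraries for LPS against control, from -0.80 to 0.13 and -0.24 for LPSBLF against LPS, and from -1.07 to -0.28 and -0.65 in the interaction, where the filter on a mean of 5 FPKM, which drops Zbtb16, also gave -0.65. Over single libraries left out it ran from 0.014 to 0.68, from -0.94 to 0.12, and from -1.32 to -0.28 in these 3 comparisons.

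Members whose fitted sign turned were as follows. DESeq2 without LPS replicate 1 gave Zbtb16 -0.90, Klf9 -0.23 and Mt1 -0.064 for LPS against control, Fkbp5 0.12, Zbtb16 0.69, Klf9 0.042, Mt1 1.15 and Mt2 1.41 for LPSBLF against LPS, and Dusp1 -0.026, Mt1 0.93 and Mt2 1.14 in the interaction. Without the 5 libraries Fkbp5 was -0.022, Zbtb16 -1.04 and Klf9 -0.21 for LPS against control, Zbtb16 0.87, Klf15 -0.11 and Cebpd -0.14 for LPSBLF against LPS, and Fkbp5 -0.49 for LPSBLF against control. Without the 3 libraries rich in fat and heart markers Klf15 was -0.050 for LPSBLF against LPS and Fkbp5 -0.20 for LPSBLF against control. limma gave Klf9 -0.016 (-0.017 with a pseudocount of 0.1) for LPS against control.

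Ranges with single libraries left out were -0.89 to 1.64 (Zbtb16), -0.23 to 0.25 (Klf9) and -0.064 to 3.75 (Mt1) for LPS against control. For LPSBLF against LPS they were -3.47 to 0.12 (Fkbp5), -1.88 to 0.68 (Zbtb16), -0.47 to 0.035 (Klf9), -0.050 to 0.23 (Klf15), -2.47 to 1.14 (Mt1), -3.00 to 1.40 (Mt2) and -0.38 to 0.44 (Cebpd). For BLF against control they were -0.24 to 0.98 (Mt1) and -0.078 to 0.64 (Mt2). For LPSBLF against control they were -0.089 to 0.43 (Fkbp5), -0.47 to 0.022 (Tsc22d3), -0.44 to 0.28 (Zbtb16) and -0.20 to 0.096 (Klf15). In the interaction they were -0.11 to 0.49 (Dusp1), -2.88 to 0.93 (Mt1) and -3.27 to 1.13 (Mt2), and for LPSBLF against BLF -0.14 to 0.23 (Sgk1) and -0.64 to 0.055 (Cebpd). In all, 687 of 720 member values kept sign and call when 1 library was left out, and 677 of 704 under the other alternatives. The Fkbp5 values of DESeq2 with all 12 libraries had no p and were counted by sign alone. No member was called in the main fit, so no call could be lost, and size was not compared. A value that shrank without changing sign counted as kept, as Fkbp5 did for LPS against control without LPS replicate 1.

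The replicate numbers were checked for pairing: 7 of 18 same-numbered pairs of libraries correlated above 0.1 (range -0.709 to 0.581), and 2 of 12 libraries correlated best with their own number, so the numbers were not taken to pair the mice. A fit with a replicate block called 0 genes in each comparison and turned 1 member value, Sgk1 for LPSBLF against BLF, from -0.006 to 0.0008.

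The lowest count of a member in any library was 70 (Zbtb16), above the floor of 3 counts, and 3 mice a group set the precision. The fit of only the groups compared gave no value for the interaction, which needs all 4 groups.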
